A study of Mus musculus with 12 samples.

Results

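The comparison described here sets rsEpiSC lines derived from mouse embryos at embryonic day (E) 5.75 against EpiSC lines derived at the same stage and kept in another medium. It covers 4 of the 12 arrays of the series, 2 per group, and the 22180 genes that a probe set with 1 gene symbol measured. The rsEpiSC lines, which other label fields call intrinsic state cells or IS-EPIs, were grown in N2B27 with IWR1 at 2.5 µM and a factor at 20 ng/ml whose name the labels leave out. The EpiSC lines were grown in N2B27 with the serum replacement KSR at 20%, Activin A (20 ng/ml) and FGF2 (12 ng/ml). Both media were used over feeder layers of mouse embryonic fibroblasts (MEFs). The media differ in several agents, and with 1 factor unnamed the labels do not show whether they share an added agent, so the part of any single agent cannot be told apart. The strain labels name an OCT4-deltaPE-GFP reporter background, in which GFP is driven by an Oct4 transgene lacking its proximal enhancer, crossed to C57BL/6 for EpiSC. On the rsEpiSC arrays the final number of that label reads 7 and 8, and the upper passage number also counts up from array to array, so neither field was used to describe the groups. The labels do not say whether the 2 arrays of a group are separate lines, separate cultures or repeats of 1 culture, and the p-values therefore reflect no more than how far these arrays vary, which may be technical variation. The rsEpiSC lines derived at E6.5, kept in the same medium as those of E5.75, serve as a second rsEpiSC group where their values are given. The remaining arrays, of embryonic stem cells (ESC) derived at E3.5 and of epiblast tissue, entered the estimate of the spread.

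The epiblast is the pluripotent epithelium of the embryo after implantation. Cells explanted from it with Activin A and FGF2 grow as EpiSC, in which Activin signals through SMAD proteins and FGF2 through ERK, and in which Wnt signalling promotes differentiation along the primitive streak. IWR1 stabilises Axin and so lowers beta-catenin signalling. In the embryo, low Nodal and low Wnt activity mark the anterior epiblast, from which forebrain and other neural tissue arises, and loss of the epithelial cadherin Cdh1 with gain of Cdh2 marks cells that leave an epithelium or form neural tissue. These statements are background to the genes described and were not tested.

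Of the 22180 genes, 858 (3.87%) differed between rsEpiSC E5.75 and EpiSC at an adjusted p under 0.05 (limma, Benjamini-Hochberg over all genes). Of these, 345 genes (1.56% of those tested) rose in rsEpiSC and 513 (2.31%) fell. The counts of passing list members given below are to be set beside these shares. The arrays of the groups did not overlap for any of the 858 genes, against 47.1% of all genes tested (24.7% higher and 22.4% lower in rsEpiSC). The difference was at least 2-fold for 831 of them. On the log2 scale, 29 genes rose by at least 3 and 77 fell by at least 3, and 5 rose and 23 fell by at least 4. Most genes differed little: the median difference over all genes was 0.02, with quartiles of -0.22 and 0.25. Of the 345 risen genes, 148 (42.9%) lay below the median of all values (4.63) in EpiSC, against 50.2% of all genes, and of the 513 fallen genes 185 (36.1%) lay below it in rsEpiSC, against 50% of all genes. The root mean square SD between replicate arrays was 0.26 in rsEpiSC and 0.34 in EpiSC, and 374 and 997 genes differed by more than 1 log2 unit between the replicates of rsEpiSC and of EpiSC. Leaving out 1 array lowered the count of differing genes to 322 and 318 without rsEpiSC replicates 1 and 2, and to 402 and 626 without EpiSC replicates 1 and 2. Of the 164 genes named below by a fixed rule that passed, 77, 79, 89 and 101 still passed in the same 4 fits, 62 passed in each of them, and 37 passed in none.

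**Figure D1:**
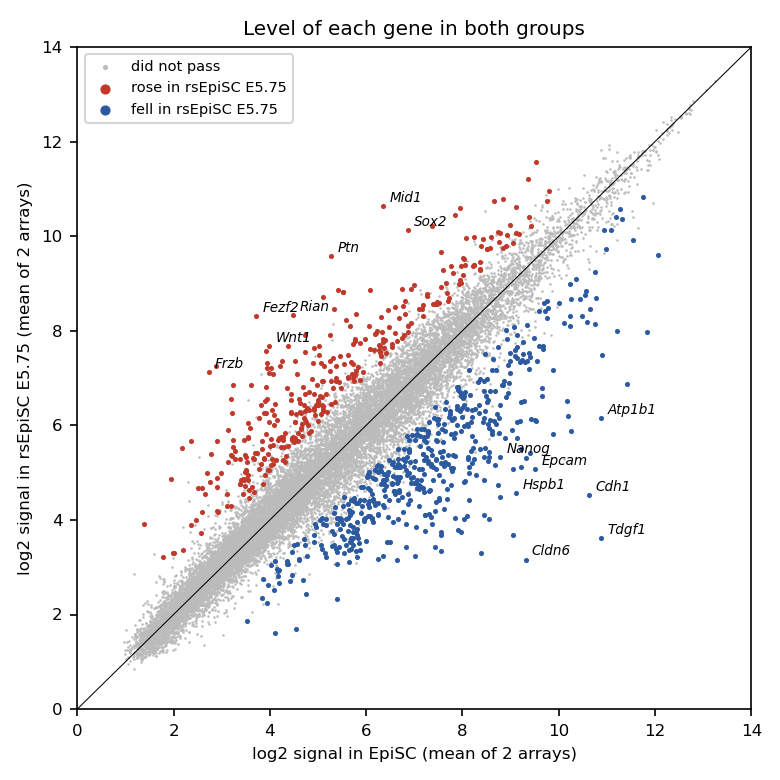
The mean log2 signal of 2 arrays in rsEpiSC E5.75 (vertical axis) is plotted against that in EpiSC (horizontal axis), 1 point per gene, with the line of equal levels. The 345 genes that rose lie above the line and the 513 that fell lie below it, and Tdgf1, Cldn6 and Cdh1 lie farthest below.

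The labelled cell type was checked against marker lists. The 11 measured core pluripotency genes had mean log2 signals of 6.61 and 6.43 on the rsEpiSC arrays and of 6.91 and 7.43 on the EpiSC arrays. Of these genes, 8 in rsEpiSC and 10 in EpiSC lay above the median of all values. Markers of fibroblasts, the feeder cell type, had mean signals of 4.78 and 4.90 in rsEpiSC against 5.01 and 5.28 in EpiSC over 20 genes. Of these markers 2 fell (Tagln and S100a4) and 0 rose, against 2.31% and 1.56% of all genes. Visceral endoderm markers averaged 4.38 and 4.40 in rsEpiSC and 4.6 and 4.38 in EpiSC over 18 genes, of which 0 passed. Of 14 trophoblast markers, which averaged 4.27 and 4.12 in rsEpiSC and 4.43 and 4.51 in EpiSC, Fgfr2 rose and Plet1 fell. In RNA of whole cultures, fewer cells of a type and less RNA per cell cannot be told apart, and the part of feeder cells in the differences below was not tested.

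The 12 genes that rose most were Fezf2, Frzb, Ptn, Mid1, Rian, Wnt1, Hesx1, Tox3, Fzd3, Lrrn1, Lhx5 and Cdh2, by 3.31 to 4.59 on the log2 scale. The 12 that fell most were Tdgf1, Cldn6, Cdh1, Platr10, Apela, Atp1b1, Hspb1, Sema3e, S100a10, Epcam, Utf1 and Mme, with differences of -7.27 to -4.35. Among the risen genes are transcription factors of the forebrain (Fezf2, Hesx1, Lhx5), the Wnt ligand Wnt1, its secreted antagonist Frzb and the receptor Fzd3. Among the fallen genes are parts of epithelial junctions (Cdh1, Cldn6, Epcam) and the Nodal co-receptor Tdgf1. Tdgf1 had log2 signals of 2.98 and 4.24 in rsEpiSC E5.75, against 10.24 and 11.52 in EpiSC (log2 difference -7.27 ± 0.61 SE, adjusted p = 9.05e-05). Fezf2, a zinc finger factor of forebrain neurons, had 8.63 and 7.99 in rsEpiSC E5.75, against 3.17 and 4.28 in EpiSC (log2 difference 4.59 ± 0.35 SE, adjusted p = 4.88e-05). The rsEpiSC and EpiSC arrays of both genes were far apart compared with the gap between replicates. Platr10, a noncoding RNA, measured 3.59 and 3.79 in rsEpiSC E5.75, against 8.5 and 9.60 in EpiSC (log2 difference -5.36 ± 0.39 SE, adjusted p = 4.32e-05). Apela, a peptide ligand of the apelin receptor, measured 3.17 and 3.46 in rsEpiSC E5.75, against 8.16 and 8.62 in EpiSC (log2 difference -5.08 ± 0.66 SE, adjusted p = 0.00104). Atp1b1, the beta subunit of the sodium pump, measured 5.66 and 6.66 in rsEpiSC E5.75, against 11.15 and 10.61 in EpiSC (log2 difference -4.72 ± 0.37 SE, adjusted p = 5.26e-05). Platr10 and Apela were below the median of all values in rsEpiSC, and all 3 genes stood well above it in EpiSC. Mme, the cell surface peptidase neprilysin, measured 3.70 and 4.50 in rsEpiSC E5.75, against 8.85 and 8.06 in EpiSC (log2 difference -4.35 ± 0.43 SE, adjusted p = 0.000221). Ptn, a secreted heparin-binding growth factor, measured 9.23 and 9.93 in rsEpiSC E5.75, against 5.31 and 5.23 in EpiSC (log2 difference 4.31 ± 0.38 SE, adjusted p = 0.000122). Tox3, a chromatin protein with an HMG box, measured 8.87 and 8.55 in rsEpiSC E5.75, against 5.19 and 5.04 in EpiSC (log2 difference 3.59 ± 0.32 SE, adjusted p = 0.000123). Both rsEpiSC arrays were above both EpiSC arrays for Ptn and Tox3, and below them for Mme. Groups overlapped for no passing gene, and did not overlap for 47.1% of all genes. Lrrn1, a membrane protein with leucine-rich repeats, measured 7.51 and 7.11 in rsEpiSC E5.75, against 3.96 and 3.91 in EpiSC (log2 difference 3.37 ± 0.27 SE, adjusted p = 5.81e-05). Mid1, an X-linked ubiquitin ligase that binds microtubules, measured 10.57 and 10.68 in rsEpiSC E5.75, against 6.43 and 6.29 in EpiSC (log2 difference 4.26 ± 0.26 SE, adjusted p = 1.07e-05), and its other probe set gave a difference of 5.1. For 40 of 46 called genes with several probe sets, all other probe sets had the same sign, and for 22 of the 46 all other probe sets differed at least 2-fold the same way. Hesx1 and Cdh2 lost their calls in at least 1 of the fits that left out 1 of the 4 arrays, and the other passing genes given here kept theirs.

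**Figure D2:**
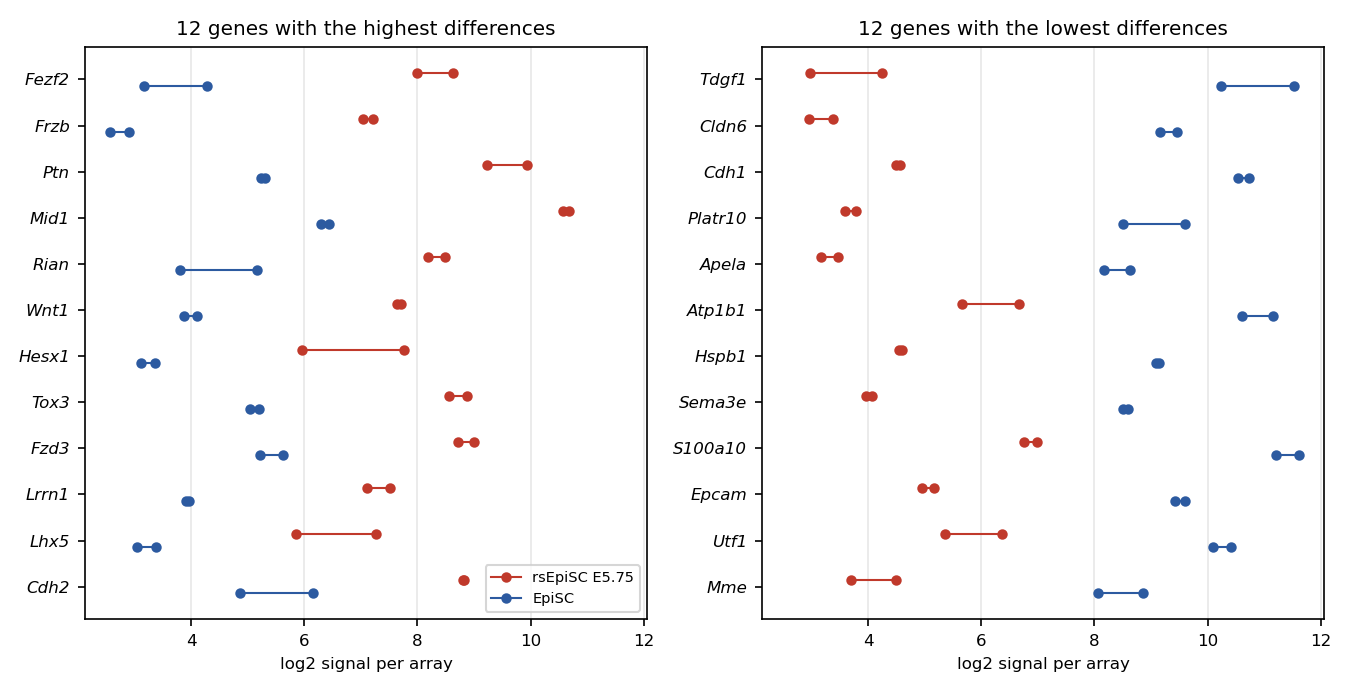
The log2 signal on each of the 4 arrays is shown for the 12 genes that rose most and the 12 that fell most, with rsEpiSC E5.75 and EpiSC arrays as separate point colours. The genes were chosen among passing genes whose groups do not overlap. Hesx1 and Lhx5 have the widest gaps between the rsEpiSC replicates among the risen genes.

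Genes of epithelial cell junctions were lower in rsEpiSC in part: of 41 measured, 15 fell and 1 rose, with a median difference of -0.59 against 0.02 over all genes. Of the 41 differences 30 were below 0 and 11 above it, and the adherens junction genes had a median of -0.08. Among 11 adherens junction genes 3 fell and 1 rose, among 19 tight junction genes 6 fell and 0 rose, and among 11 desmosome and gap junction genes 6 fell and 0 rose. The number of fallen junction genes was 12, 10, 11 and 14 without rsEpiSC replicate 1, rsEpiSC replicate 2, EpiSC replicate 1 and EpiSC replicate 2. Cdh1, the epithelial cadherin, had log2 signals of 4.50 and 4.56 in rsEpiSC E5.75, against 10.53 and 10.73 in EpiSC (log2 difference -6.10 ± 0.82 SE, adjusted p = 0.00141), and a second probe set gave -5.34. Cdh3, placental cadherin, measured 4.68 and 4.16 in rsEpiSC E5.75, against 8.25 and 8.02 in EpiSC (log2 difference -3.71 ± 0.35 SE, adjusted p = 0.000152). Epcam, an epithelial adhesion molecule, measured 5.17 and 4.96 in rsEpiSC E5.75, against 9.60 and 9.43 in EpiSC (log2 difference -4.45 ± 0.53 SE, adjusted p = 0.000606). All 3 were at or near the median of all values in rsEpiSC. Cdh2, the cadherin of neural and mesenchymal cells, was the only gene of the list that rose past the threshold. It measured 8.83 and 8.81 in rsEpiSC E5.75, against 4.87 and 6.16 in EpiSC (log2 difference 3.31 ± 0.60 SE, adjusted p = 0.00896), with the 2 EpiSC arrays 1.29 apart. Of the claudins, which seal tight junctions, Cldn6 measured 2.95 and 3.37 in rsEpiSC E5.75, against 9.15 and 9.46 in EpiSC (log2 difference -6.15 ± 0.68 SE, adjusted p = 0.000414). Cldn4 measured 4.33 and 4.65 in rsEpiSC E5.75, against 9.23 and 8.36 in EpiSC (log2 difference -4.30 ± 0.39 SE, adjusted p = 0.00014). Both claudins were below or close to the median of all values in rsEpiSC and far above it in EpiSC. Cldn3 fell by 2.71 and the junctional adhesion molecule F11r by 3.43. Ocln, which encodes occludin, fell by 1.90, and the apical polarity protein Crb3 by 2.32. All 6 fallen tight junction genes had both rsEpiSC arrays below both EpiSC arrays. No passing gene had overlapping groups, and 22.4% of all genes lay lower in rsEpiSC without overlap. In desmosomes, Dsp, which links cadherins to keratin filaments, measured 4.70 and 3.54 in rsEpiSC E5.75, against 7.50 and 7.11 in EpiSC (log2 difference -3.19 ± 0.40 SE, adjusted p = 0.000808). The desmosomal cadherins Dsg2 and Dsc2 fell by 2.90 and 2.10, and the plaque protein Jup by 2.03. A second probe set of Dsg2 gave a difference of only -0.26. The gap junction protein Gjb2 fell by 1.70. The E6.5 rsEpiSC arrays, from lines in the same medium, were not uniform for several of these genes. Cdh1 measured 9.59 and 5.94 on those 2 arrays, Cldn6 6.35 and 3.52, Epcam 8.38 and 6.28 and Esrp1 7.22 and 4.59. Replicate 1 of rsEpiSC E6.5 was thus nearer to EpiSC for these 4 genes, and replicate 2 nearer to rsEpiSC E5.75. Cdh2, Ocln, Crb3, Dsc2 and Gjb2 lost their calls in at least 1 of the fits that left out 1 of the 4 arrays, and the other passing genes given here kept theirs.

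Part of the regulators of the epithelial state were lower too. Of 12 measured, 6 fell and 0 rose, with a median of -1.48. St14, a membrane serine protease of epithelia, measured 4.79 and 5.44 in rsEpiSC E5.75, against 9.47 and 8.96 in EpiSC (log2 difference -4.10 ± 0.57 SE, adjusted p = 0.00159). Esrp1, an epithelial splicing factor, measured 3.92 and 3.58 in rsEpiSC E5.75, against 8.12 and 7.80 in EpiSC (log2 difference -4.21 ± 0.64 SE, adjusted p = 0.00267). Rab25, a GTPase of epithelial recycling endosomes, measured 3.84 and 4.18 in rsEpiSC E5.75, against 8.13 and 7.94 in EpiSC (log2 difference -4.02 ± 0.68 SE, adjusted p = 0.00567). Esrp1 and Rab25 lay below the median of all values in rsEpiSC, and St14 just above it. The protease inhibitors Spint1 and Spint2 fell by 2.16 and 2.34, and the transcription factor Grhl2 by 1.62. The 7 mesenchymal regulators had a median of -0.24, with 3 differences above 0 and 4 below it, the lowest at -1.09. Of these 7 only Zeb1, a repressor of Cdh1, passed. It measured 6.43 and 6.75 in rsEpiSC E5.75, against 5.11 and 5.06 in EpiSC (log2 difference 1.51 ± 0.29 SE, adjusted p = 0.0125). Twist1, another factor of the mesenchymal list, did not pass, with 6.27 and 7.12 in rsEpiSC E5.75, against 6.01 and 4.70 in EpiSC (adjusted p = 0.105). Rab25 and Grhl2 lost their calls in at least 1 of the fits that left out 1 of the 4 arrays. Zeb1 lost its call in each of these fits, with differences of 1.35 to 1.66. The other passing genes given here kept theirs.

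Zeb1 and the related Snail factors bind the hexamer CAGGTG in promoters, so the promoter sequences of RefSeq (build GRCm38.p6, 250 bases before to 50 after each gene's start) were searched for it on both strands. These motifs and the windows shown were chosen after the values were seen. CAGGTG was found in 22.3% of the 16990 measured genes with a promoter and in 20.2% of all 32851 promoters. It was found in 127 of the 398 fallen genes with a promoter (31.9%) and in 51 of the 246 risen ones (20.7%). In the junction list 14 of 24 promoters held it. Of its 15 fallen genes only 10 had a promoter to search, and 9 of these held it. Cdh1 is not among the 9, which are Epcam, Cldn3, Cldn4, Cldn6, Ocln, F11r, Crb3, Dsp and Gjb2. Whether Cdh1 had a promoter to search is not given here, so no lack of the hexamer is shown for it. A match of letters is not evidence of binding. The windows show, on the gene's strand, the match nearest before the start of transcription for 5 of them. Capitals mark CAGGTG or its reverse complement.
Epcam, chr17:87635938-87635978 (plus strand): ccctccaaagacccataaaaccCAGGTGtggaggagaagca
Cldn4, chr5:134946935-134946970 (minus strand): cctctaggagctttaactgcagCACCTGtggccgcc
Cldn6, chr17:23679250-23679299 (plus strand): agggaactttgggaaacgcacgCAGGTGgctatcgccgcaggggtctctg
Ocln, chr13:100552539-100552588 (minus strand): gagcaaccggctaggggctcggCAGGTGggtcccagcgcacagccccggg
Gjb2, chr14:57104703-57104733 (minus strand): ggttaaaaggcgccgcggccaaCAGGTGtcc
The first base of the match lies 19 bases before the start of transcription in Epcam, 14 in Cldn4, 93 in Cldn6, 68 in Ocln and 9 in Gjb2. Epcam and Ocln hold 2 matches before the start, and the other 3 genes hold 1 each.

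Keratins, S100 proteins and annexins, which serve the cytoskeleton and calcium-dependent membrane binding, were lower together: of 24 measured, 11 fell and 0 rose, with a median of -1.35. Leaving out the 4 arrays in the same order gave 6, 8, 9 and 7 fallen genes. All 8 measured annexins were below 0, with a median of -2.01, and 4 of them fell. Of 6 keratins 3 fell, which were the simple epithelial keratins Krt18, Krt8 and Krt19. Krt7 did not pass (log2 difference -0.9, adjusted p = 0.306), and 1 of the 6 differences was above 0. Krt18 measured 7.94 and 8.07 in rsEpiSC E5.75, against 11.13 and 11.28 in EpiSC (log2 difference -3.20 ± 0.28 SE, adjusted p = 0.000123). Krt8, its partner, measured 6.15 and 6.82 in rsEpiSC E5.75, against 8.63 and 9.80 in EpiSC (log2 difference -2.73 ± 0.52 SE, adjusted p = 0.0114). Krt19 fell by 3.11. Krt18 and Krt8 fell but stayed well above the median of all values in rsEpiSC. S100a10, a partner of annexin A2, measured 6.75 and 6.99 in rsEpiSC E5.75, against 11.21 and 11.61 in EpiSC (log2 difference -4.54 ± 0.50 SE, adjusted p = 0.000404). S100a11, S100a13 and S100a4 fell by 1.63, 2.99 and 1.65. S100a10 kept a level well above the median of all values in rsEpiSC. Among annexins, Anxa3 measured 4.84 and 5.76 in rsEpiSC E5.75, against 9.11 and 9.54 in EpiSC (log2 difference -4.02 ± 0.55 SE, adjusted p = 0.00156). Anxa1, Anxa4 and Anxa5 fell by 4.01, 3.08 and 2.73. S100a4 is also a fibroblast marker, and the part of feeder RNA in these values was not tested. Of 6 small heat shock proteins 2 fell, and of 15 larger chaperones and stress proteins 1 fell, with medians of -0.84 and -0.06. Hspb1, a small chaperone that binds actin and keratin filaments, measured 4.55 and 4.6 in rsEpiSC E5.75, against 9.14 and 9.09 in EpiSC (log2 difference -4.55 ± 0.23 SE, adjusted p = 3.67e-06), and a second probe set gave -2.0. Cryab, alpha B crystallin, measured 7.03 and 7.93 in rsEpiSC E5.75, against 10.45 and 11.36 in EpiSC (log2 difference -3.43 ± 0.47 SE, adjusted p = 0.00156). Hspb1 was at the median of all values in rsEpiSC, and Cryab well above it. Hmox1, heme oxygenase, fell by 2.61. Krt8, S100a13, S100a4, Anxa1, Anxa5 and Hmox1 lost their calls in at least 1 of the fits that left out 1 of the 4 arrays, and the other passing genes given here kept theirs. Anxa5 lost its call in each of these fits.

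Basement membrane proteins and their receptors changed in both directions. Of 18 basement membrane genes, 5 fell and 1 rose, against 2.31% and 1.56% of all genes. The 32 genes of basement membranes and integrins held 7 falls, and 1, 0, 1 and 3 with the 4 arrays left out in that order. Nid1, which joins laminin to collagen IV, measured 6.34 and 5.48 in rsEpiSC E5.75, against 8.62 and 9.42 in EpiSC (log2 difference -3.11 ± 0.48 SE, adjusted p = 0.00329), with -1.68 from a second probe set. The heparan sulfate proteoglycan Hspg2 fell by 1.37, the laminin chains Lamb1 and Lama5 by 1.52 and 1.15, and Nid2 by 1.11. Lama1, the alpha chain of early embryonic laminin, rose, with 5.56 and 5.0 in rsEpiSC E5.75, against 3.98 and 4.09 in EpiSC (log2 difference 1.24 ± 0.27 SE, adjusted p = 0.0247). Of 14 integrins, Itga3 and Itgb5 fell by 1.83 and 1.51 and Itgb8 rose by 1.37. The YAP and TEAD pathway, which responds to tension and cell shape, showed 3 falls and 0 rises among 15 components and targets, and the 3 that fell are targets. Ccn2 measured 6.37 and 6.48 in rsEpiSC E5.75, against 8.61 and 8.98 in EpiSC (log2 difference -2.37 ± 0.47 SE, adjusted p = 0.0141), but its second probe set gave only -0.23. Ccn1 and Ankrd1 fell by 1.93 and 1.69. Tagln, an actin-binding protein of smooth muscle and fibroblasts, fell by 1.85. Fibroblasts of the feeder layer express several of these genes too, and 2 of the 20 feeder markers fell. Nid1, Hspg2, Lamb1, Lama5, Nid2, Lama1, Itga3, Itgb5, Itgb8, Ccn2, Ccn1, Ankrd1 and Tagln failed to pass in at least 1 of the 4 fits with 1 array left out. Lamb1, Nid2, Itga3, Itgb5 and Ccn2 passed in none of these fits.

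Nodal and Activin pathway genes had a median of -0.30, and 10 of 34 fell and 0 rose, against 2.31% and 1.56% of all genes. With the same arrays left out in turn, 4, 3, 5 and 4 of them fell. Activin A was added to the medium of EpiSC. The labels leave 1 factor of the rsEpiSC medium unnamed, so whether that medium held Activin A too is not known. The part of Activin A in these values was not tested. Of 6 ligands, Tgfb1, Tgfb2 and Inhba, which encodes the subunit of Activin A itself, fell. Tgfb1 measured 4.6 and 5.09 in rsEpiSC E5.75, against 6.72 and 7.56 in EpiSC (log2 difference -2.29 ± 0.38 SE, adjusted p = 0.00457). Tgfb2 and Inhba fell by 1.49 and 1.19. Tgfb1 was close to the median of all values in rsEpiSC and above it in EpiSC. Nodal did not pass, with 4.90 and 4.81 in rsEpiSC E5.75, against 6.00 and 6.46 in EpiSC (adjusted p = 0.283). Of 8 receptors and co-receptors, Tdgf1 alone passed, at a difference of -7.27. The type I receptor Tgfbr1 measured 7.21 and 6.67 in rsEpiSC E5.75, against 5.6 and 6.39 in EpiSC and did not pass (adjusted p = 0.277). No receptor kinase of the list passed. Of 4 transducers, Foxh1, the DNA-binding partner of SMAD2, fell, with 6.47 and 5.83 in rsEpiSC E5.75, against 9.16 and 8.34 in EpiSC (log2 difference -2.60 ± 0.45 SE, adjusted p = 0.00611). Of 11 inhibitors, 4 fell, all of which are known to be induced by the pathway they restrain. Skil, a SMAD repressor, measured 5.51 and 4.88 in rsEpiSC E5.75, against 7.98 and 7.41 in EpiSC (log2 difference -2.50 ± 0.30 SE, adjusted p = 0.000606). Lefty1, a secreted Nodal antagonist, measured 5.5 and 5.07 in rsEpiSC E5.75, against 7.09 and 9.14 in EpiSC (log2 difference -2.84 ± 0.65 SE, adjusted p = 0.031). Smad7 fell by 1.80 and Pmepa1 by 1.58. EpiSC replicate 2 was 2.05 above replicate 1 for Lefty1. Of 5 downstream targets Eomes, a factor of the primitive streak, fell, with 4.31 and 4.25 in rsEpiSC E5.75, against 5.31 and 5.40 in EpiSC (log2 difference -1.07 ± 0.26 SE, adjusted p = 0.0425). Among 24 genes of the primitive streak and mesoderm, Eomes was also the only one that passed, and the median was -0.07. Over all genes 3.87% passed. Of 12 definitive endoderm genes Cxcr4 rose by 2.41 and Trh and Krt19 fell by 3.41 and 3.11. Tdgf1, Skil and Krt19 still passed without any 1 of the 4 arrays, and the other passing genes given here did not in at least 1 of those fits. Tgfb2, Inhba and Eomes passed in none of them.

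Wnt pathway genes had a median of 0.17, and 6 of 70 rose and 0 fell, against 1.56% and 2.31% of all genes. The 6 were 1 ligand, 1 antagonist, 3 receptors and 1 target. Wnt1, a ligand of the midbrain, measured 7.70 and 7.64 in rsEpiSC E5.75, against 3.87 and 4.10 in EpiSC (log2 difference 3.68 ± 0.47 SE, adjusted p = 0.000947), and was the 1 of 19 ligands that passed. Wnt3, the ligand of the primitive streak, measured 3.96 and 3.82 in rsEpiSC E5.75, against 5.80 and 4.49 in EpiSC and did not pass (adjusted p = 0.11). These ligands lay in opposite directions, and of the 2 only Wnt1 passed. Frzb, 1 of 12 secreted antagonists, measured 7.21 and 7.03 in rsEpiSC E5.75, against 2.90 and 2.57 in EpiSC (log2 difference 4.39 ± 0.48 SE, adjusted p = 0.000404). Of 15 receptors, Fzd3 measured 9.00 and 8.72 in rsEpiSC E5.75, against 5.21 and 5.63 in EpiSC (log2 difference 3.44 ± 0.34 SE, adjusted p = 0.000217). The receptors Fzd8 and Ror1 rose by 1.27 and 1.25. None of the 11 intracellular transducers passed, and their differences ran from -0.21 to 0.51. Of 13 target genes, Lef1, which is both a mediator and a target, measured 7.06 and 7.58 in rsEpiSC E5.75, against 4.66 and 5.12 in EpiSC (log2 difference 2.43 ± 0.27 SE, adjusted p = 0.000441). Axin2, the target most often used as a readout, measured 5.85 and 6.37 in rsEpiSC E5.75, against 5.33 and 5.10 in EpiSC and did not pass (adjusted p = 0.164). Rnf43, a membrane inhibitor and target, measured 4.49 and 4.56 in rsEpiSC E5.75, against 6.45 and 5.17 in EpiSC and did not pass (adjusted p = 0.0916). The targets thus included 1 gene that rose, with both Axin2 and Rnf43 short of the threshold in opposite directions. Fzd8 and Ror1 lost their calls in each of the fits that left out 1 of the 4 arrays. The other passing genes given here kept theirs.

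In the FGF pathway 2 of 38 genes rose and 1 fell, against 1.56% and 2.31% of all genes. The ligand FGF2 was in the EpiSC medium. Whether the unnamed factor of the rsEpiSC medium was FGF2 is not known, and its part was not tested. Of 16 ligands 0 passed, and of 6 receptors 1 passed. The receptor Fgfr2 measured 7.81 and 7.39 in rsEpiSC E5.75, against 6.42 and 6.10 in EpiSC (log2 difference 1.33 ± 0.32 SE, adjusted p = 0.037). Of 16 targets and feedback genes, the phosphatase Dusp4 rose by 1.6 and the stress-response gene Ier3 fell by 1.96. Spry1 and Spry2, feedback inhibitors, measured 6.80 and 7.33 in rsEpiSC E5.75, against 5.51 and 5.83 in EpiSC for Spry1 (adjusted p = 0.117), and 8.65 and 8.90 in rsEpiSC E5.75, against 6.28 and 7.98 in EpiSC for Spry2 (adjusted p = 0.104). Fgf5, the usual marker of primed epiblast, overlapped between groups, with 3.78 and 4.17 in rsEpiSC E5.75, against 3.94 and 6.62 in EpiSC (adjusted p = 0.432). It was high on EpiSC replicate 2 and not on replicate 1. In the BMP pathway 3 of 26 genes rose and 0 fell, against 1.56% and 2.31% of all genes. All 3 are Id genes, which inhibit basic helix-loop-helix factors. Id3 measured 8.81 and 8.82 in rsEpiSC E5.75, against 4.49 and 6.52 in EpiSC (log2 difference 3.31 ± 0.78 SE, adjusted p = 0.0347), with 2.03 between the 2 EpiSC arrays. Id1 and Id2 rose by 2.11 and 1.76. Of 18 BMP ligands, receptors and inhibitors 0 passed. Fgfr2, Dusp4, Ier3, Id3, Id1 and Id2 failed to pass in at least 1 of the 4 fits with 1 array left out. Fgfr2, Dusp4, Ier3 and Id2 passed in none of these fits.

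Of 19 Notch genes 3 rose and 1 fell, against 1.56% and 2.31% of all genes. The glycosyltransferases Lfng and Mfng, which modify Notch receptors, both rose. Lfng measured 7.50 and 7.78 in rsEpiSC E5.75, against 4.68 and 5.15 in EpiSC (log2 difference 2.73 ± 0.34 SE, adjusted p = 0.000853), and Mfng rose by 1.55. The receptor Notch2 rose by 1.11. The ligand Jag2 fell, with 4.86 and 4.45 in rsEpiSC E5.75, against 7.62 and 6.56 in EpiSC (log2 difference -2.44 ± 0.39 SE, adjusted p = 0.00391), and its gene lies on the part of chromosome 12 described below. The ligand Jag1 measured 6.83 and 7.03 in rsEpiSC E5.75, against 5.26 and 5.57 in EpiSC (adjusted p = 0.0658). None of 7 Notch targets passed. In the Hedgehog pathway Gli3, a transcription factor, rose by 1.36, and the other 11 genes did not pass. Of 4 genes of retinoic acid binding and uptake, the cytoplasmic binding proteins Crabp1 and Crabp2 rose. Crabp1 measured 10.22 and 10.21 in rsEpiSC E5.75, against 7.74 and 6.97 in EpiSC (log2 difference 2.86 ± 0.44 SE, adjusted p = 0.00297). Crabp2 measured 11.22 and 11.20 in rsEpiSC E5.75, against 9.79 and 8.96 in EpiSC (log2 difference 1.83 ± 0.25 SE, adjusted p = 0.00156). Of 8 genes of synthesis and degradation, the retinal reductase Dhrs3 and the retinol dehydrogenase Rdh10 fell by 2.56 and 2.01. None of 6 retinoic acid receptors passed, and 0 of 13 genes of the LIF and STAT3 pathway passed. Lfng, Crabp1 and Crabp2 still passed without any 1 of the 4 arrays, and the other passing genes given here did not in at least 1 of those fits. Notch2 and Rdh10 passed in none of them.

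Many genes of anterior and neural ectoderm rose: 14 of 37 measured passed and 0 fell, with a median of 1.03 against 0.02 over all genes. Without rsEpiSC replicate 1, rsEpiSC replicate 2, EpiSC replicate 1 and EpiSC replicate 2, the number that rose was 7, 11, 8 and 8. The rises covered forebrain, midbrain and general neural genes. Of 12 forebrain and eye genes 6 rose and all 12 differences were above 0. Hesx1, a repressor needed for forebrain and pituitary, measured 7.77 and 5.95 in rsEpiSC E5.75, against 3.36 and 3.12 in EpiSC (log2 difference 3.62 ± 0.61 SE, adjusted p = 0.00518). Lhx5, a LIM factor, measured 7.26 and 5.86 in rsEpiSC E5.75, against 3.04 and 3.37 in EpiSC (log2 difference 3.35 ± 0.40 SE, adjusted p = 0.000606). Rax, the eye field factor, measured 7.56 and 6.61 in rsEpiSC E5.75, against 4.46 and 4.68 in EpiSC (log2 difference 2.52 ± 0.33 SE, adjusted p = 0.00117). The rsEpiSC replicates of Hesx1 lay 1.83 apart, and the EpiSC arrays stayed below or near the median of all values for all 3. Fezf1 and Pax6 rose by 2.62 and 1.53. Of 11 midbrain and hindbrain genes 5 rose and 0 fell, with a median of 0.73. The paired box genes Pax2, Pax8 and Pax5 rose by 2.02, 1.37 and 1.15. En1, a midbrain homeobox gene, measured 5.56 and 5.59 in rsEpiSC E5.75, against 4.18 and 3.95 in EpiSC (log2 difference 1.51 ± 0.30 SE, adjusted p = 0.0147). Gbx2, of the anterior hindbrain, rose by 1.03. These 5 genes were near or below the median of all values in EpiSC. Of 14 early neural genes 3 rose. Sox1, the earliest marker of neural plate, measured 8.04 and 8.66 in rsEpiSC E5.75, against 5.55 and 6.03 in EpiSC (log2 difference 2.57 ± 0.31 SE, adjusted p = 0.000685). Sox11 measured 7.16 and 6.80 in rsEpiSC E5.75, against 4.95 and 4.78 in EpiSC (log2 difference 2.11 ± 0.32 SE, adjusted p = 0.00286). Zic5, which epiblast and neural plate share, measured 5.78 and 6.67 in rsEpiSC E5.75, against 7.50 and 7.60 in EpiSC and did not pass (adjusted p = 0.164). The neuronal tubulin Tubb3 measured 7.87 and 8.42 in rsEpiSC E5.75, against 4.72 and 5.89 in EpiSC, which did not pass (adjusted p = 0.089). Its difference of 2.84 carried an SE of 0.82, against 0.31 for Sox1. Some further genes were named after their values were seen. Mir124-2hg, the host transcript of a neuronal miRNA, measured 7.63 and 7.53 in rsEpiSC E5.75, against 3.85 and 4.01 in EpiSC (log2 difference 3.65 ± 0.28 SE, adjusted p = 4.88e-05), and the separate probe set of the miRNA Mir124a-2 measured 4.10 and 4.6 in rsEpiSC E5.75, against 4.84 and 4.19 in EpiSC and did not pass (adjusted p = 0.967). Sox9, a factor of neural progenitors and neural crest, measured 8.14 and 8.32 in rsEpiSC E5.75, against 5.69 and 5.48 in EpiSC (log2 difference 2.65 ± 0.30 SE, adjusted p = 0.000441). Zbtb16, a zinc finger gene of early neural tissue, measured 7.44 and 7.26 in rsEpiSC E5.75, against 4.06 and 4.46 in EpiSC (log2 difference 3.09 ± 0.39 SE, adjusted p = 0.000927). Zic1, another neural transcription factor, measured 3.38 and 3.87 in rsEpiSC E5.75, against 3.43 and 3.51 in EpiSC and did not pass (adjusted p = 0.927). Hesx1, Pax6, Pax2, Pax8, Pax5, En1 and Gbx2 lost their calls in at least 1 of the fits that left out 1 of the 4 arrays, and the other passing genes given here kept theirs. Pax2, Pax5, En1 and Gbx2 lost theirs in each of these fits, and Pax6 and Pax8 in all but 1.

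**Figure D3:**
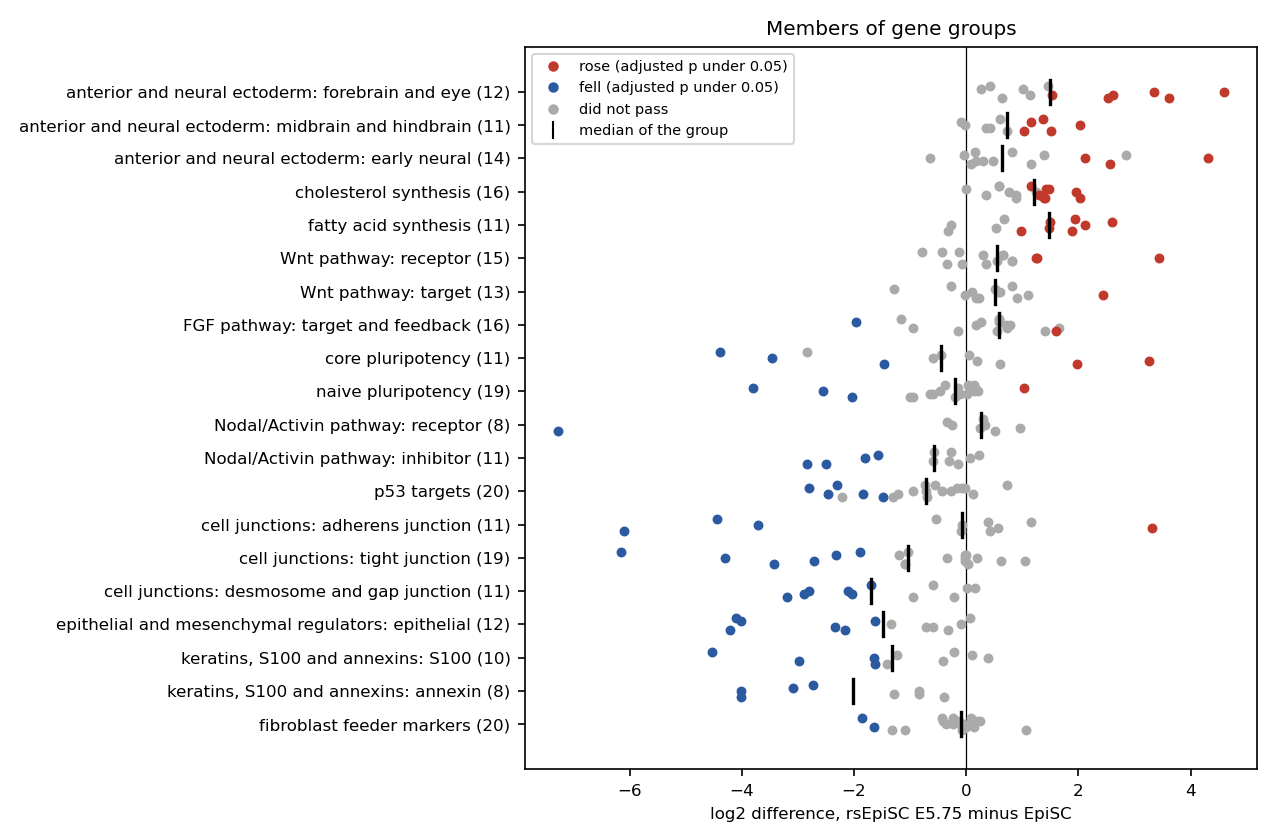
Each point is the log2 difference, rsEpiSC E5.75 minus EpiSC, of 1 measured member of a gene group, coloured by whether it rose, fell or did not pass, with the median as a bar and the number measured in brackets. Tight junction, desmosome, epithelial, S100 and annexin genes lie mostly left of 0, and forebrain, cholesterol and fatty acid genes mostly right of it.

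Axon guidance genes, which neural progenitors also use, showed 7 rises and 2 falls among 51, against 1.56% and 2.31% of all genes. With the same arrays left out in that order, 2, 3, 5 and 2 rose. Of 24 ligands, the semaphorins Sema3a and Sema5b and the Slit protein Slit3 rose by 1.40, 1.47 and 1.49. Sema3e fell, with 4.07 and 3.96 in rsEpiSC E5.75, against 8.5 and 8.60 in EpiSC (log2 difference -4.54 ± 0.36 SE, adjusted p = 5.81e-05). Of 27 receptors, Ephb1 measured 6.76 and 6.36 in rsEpiSC E5.75, against 3.70 and 4.20 in EpiSC (log2 difference 2.61 ± 0.29 SE, adjusted p = 0.000441). Epha4, Epha7 and Plxnc1 rose by 2.06, 1.87 and 1.08, and Epha1 fell by 2.03. The Eph receptors that rose and the 1 that fell belong to the same family, so the direction was not shared by all members. Sema3e, Ephb1 and Epha7 kept their calls when any 1 of the 4 arrays was left out, and the other passing genes given here did not in at least 1 of those fits. Slit3, Plxnc1 and Epha1 passed in none of them.

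Pluripotency genes split. Of 11 core genes 2 rose (Sox2 and Lin28a) and 3 fell (Utf1, Nanog and Pou5f1). Sox2, which also acts in neural progenitors, measured 10.37 and 9.87 in rsEpiSC E5.75, against 6.89 and 6.82 in EpiSC (log2 difference 3.26 ± 0.24 SE, adjusted p = 4.32e-05). Lin28a, an RNA-binding protein that blocks let-7 miRNAs, measured 9.25 and 8.69 in rsEpiSC E5.75, against 6.87 and 7.14 in EpiSC (log2 difference 1.97 ± 0.29 SE, adjusted p = 0.0023). Nanog measured 5.08 and 5.56 in rsEpiSC E5.75, against 8.80 and 8.77 in EpiSC (log2 difference -3.47 ± 0.35 SE, adjusted p = 0.000237). Sox2 and Nanog thus moved in opposite directions, with a gap of over 3 log2 units in each. Utf1, a chromatin protein of pluripotent cells, measured 5.36 and 6.37 in rsEpiSC E5.75, against 10.10 and 10.42 in EpiSC (log2 difference -4.39 ± 0.37 SE, adjusted p = 8.64e-05). Pou5f1, which encodes Oct4, had low signals on its probe set, with 4.86 and 3.86 in rsEpiSC E5.75, against 5.71 and 5.96 in EpiSC (log2 difference -1.47 ± 0.33 SE, adjusted p = 0.0271), and 6.95 and 7.11 in ESC, where it is known to be abundant. Pou5f1 and Nanog have near-identical processed copies in the genome, and whether their probes separate these was not tested. L1td1, an RNA-binding protein of pluripotent cells, measured 5.65 and 5.79 in rsEpiSC E5.75, against 7.22 and 9.89 in EpiSC and did not pass (adjusted p = 0.0742). Of 19 naive pluripotency genes 3 fell and 1 rose. Nr5a2, a nuclear receptor that binds the Pou5f1 gene, measured 3.78 and 3.72 in rsEpiSC E5.75, against 7.69 and 7.43 in EpiSC (log2 difference -3.81 ± 0.41 SE, adjusted p = 0.000362). Klf5 measured 6.11 and 6.06 in rsEpiSC E5.75, against 8.48 and 8.81 in EpiSC (log2 difference -2.56 ± 0.31 SE, adjusted p = 0.000613). Nr5a2 was below the median of all values on both rsEpiSC arrays, and Klf5 above it. Fbxo15 fell by 2.04, and Gbx2 rose by 1.03. Klf4, Esrrb and Zfp42, further naive markers, did not pass (adjusted p = 0.357, 0.954 and 0.979). Of 15 genes of the primed state, Otx2, Sall2 and Lef1 rose and Cldn6 fell. Otx2, of anterior epiblast and forebrain, measured 9.29 and 9.29 in rsEpiSC E5.75, against 7.62 and 7.56 in EpiSC (log2 difference 1.70 ± 0.33 SE, adjusted p = 0.0122). Sall2 rose by 2.03. The primed list thus moved in both directions, and Dnmt3b, the DNA methyltransferase of primed epiblast, measured 8.09 and 8.37 in rsEpiSC E5.75, against 7.58 and 9.31 in EpiSC (adjusted p = 0.969). Pou5f1, Gbx2 and Otx2 lost their calls in at least 1 of the fits that left out 1 of the 4 arrays, and the other passing genes given here kept theirs. Gbx2 and Otx2 lost theirs in each of these fits.

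**Figure D4:**
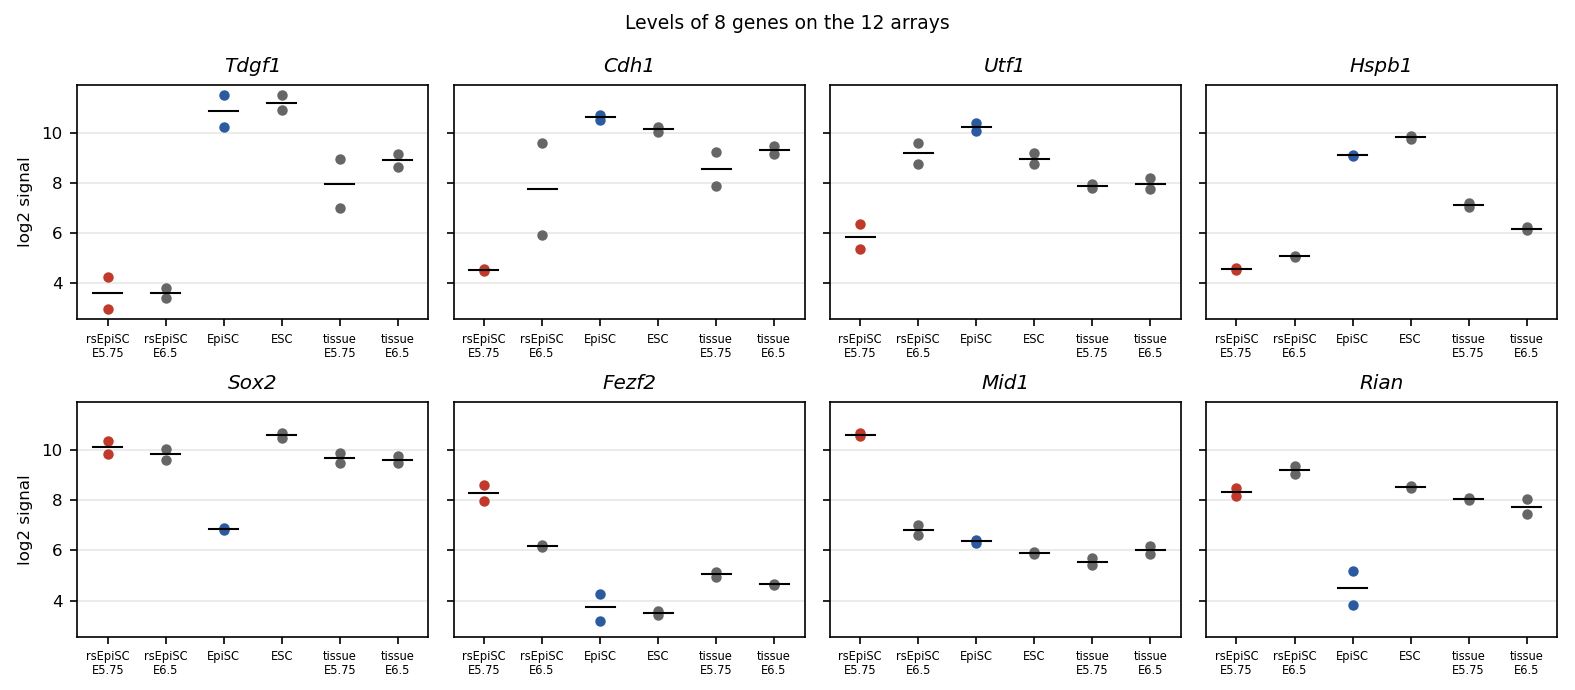
Log2 signals of Tdgf1, Cdh1, Utf1, Hspb1, Sox2, Fezf2, Mid1 and Rian on all 12 arrays, in the order rsEpiSC E5.75, rsEpiSC E6.5, EpiSC, ESC and tissue of E5.75 and E6.5, with the mean of 2 arrays as a line. Mid1 is high only on the 2 rsEpiSC E5.75 arrays, Utf1 is lowest there, and the 2 rsEpiSC E6.5 arrays lie apart for Cdh1.

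Part of the genes of sterol synthesis rose in rsEpiSC. Of 16 measured enzymes of the cholesterol pathway 8 rose and 0 fell, with a median of 1.20, and of 9 genes of uptake and regulation 1 rose and 0 fell. Without rsEpiSC replicate 1, rsEpiSC replicate 2, EpiSC replicate 1 and EpiSC replicate 2, 3, 1, 5 and 2 of the 25 genes rose, with 0 falling. The rises covered the pathway from its first committed steps to its last. Hmgcs1, which makes HMG-CoA, measured 11.45 and 11.67 in rsEpiSC E5.75, against 9.67 and 9.39 in EpiSC (log2 difference 2.03 ± 0.24 SE, adjusted p = 0.000606). Mvd and Fdps, of the isoprenoid steps, rose by 1.42 and 1.16. Sqle, which oxidises squalene, and Lss, which closes the sterol rings, rose by 1.30 and 1.96. The later enzymes Cyp51, Msmo1 and Dhcr7 rose by 1.47, 1.38 and 1.40. Stard4, a sterol carrier, measured 7.81 and 8.19 in rsEpiSC E5.75, against 6.37 and 6.07 in EpiSC (log2 difference 1.78 ± 0.28 SE, adjusted p = 0.00381). Fatty acid synthesis genes showed the same direction, with 7 of 11 risen, 0 fallen and a median of 1.47, and 4, 1, 3 and 5 risen with those arrays left out. Fasn, fatty acid synthase, measured 10.27 and 10.60 in rsEpiSC E5.75, against 7.12 and 8.58 in EpiSC (log2 difference 2.59 ± 0.50 SE, adjusted p = 0.0131). Acly, which makes cytosolic acetyl-CoA, measured 9.92 and 10.00 in rsEpiSC E5.75, against 7.85 and 8.30 in EpiSC (log2 difference 1.88 ± 0.31 SE, adjusted p = 0.00471). Fads2, a desaturase, measured 10.76 and 10.80 in rsEpiSC E5.75, against 8.75 and 8.93 in EpiSC (log2 difference 1.94 ± 0.25 SE, adjusted p = 0.000973). The 2 EpiSC arrays lay 1.46 apart for Fasn, and those of Fads2 lay close together. Acss2, which activates acetate, rose by 2.12, the carboxylase Acaca by 1.47, the desaturase Fads1 by 1.5 and the elongase Elovl5 by 0.98. Scd1 measured 7.99 and 9.27 in rsEpiSC E5.75, against 8.06 and 7.83 in EpiSC and did not pass (adjusted p = 0.674). EpiSC medium held KSR and the labels name none for rsEpiSC, and the part of serum replacement in these values was not tested. Hmgcs1 and Fads2 passed in each of the 4 fits with 1 array left out, and the other passing genes given here did not in at least 1 of those fits. Fdps, Cyp51, Msmo1 and Dhcr7 passed in none of them.

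Sterol genes are known to be driven by SREBP together with NF-Y, which binds the CCAAT box. The hexamer CCAATC was found in 20.0% of measured genes with a promoter, in 29.7% of the 246 risen and in 17.3% of the 398 fallen genes. In the cholesterol list 16 of 20 promoters held it, and all 6 risen genes of the list with a promoter did. The sterol response element searched as TCACNCCAC was found in 1.43% of measured genes and in 1 of the 20 cholesterol promoters, that of Hmgcs1. The windows show the match to the sterol element in Hmgcs1 and the CCAATC match nearest before the start of transcription in 4 more of these 6 genes. Capitals mark TCACNCCAC in Hmgcs1 and CCAATC or its reverse complement in the others.
Hmgcs1, chr13:119690192-119690244 (plus strand): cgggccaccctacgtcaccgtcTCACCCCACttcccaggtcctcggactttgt
Mvd, chr8:122443423-122443471 (minus strand): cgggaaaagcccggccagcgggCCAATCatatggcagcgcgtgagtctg
Lss, chr10:76531520-76531569 (plus strand): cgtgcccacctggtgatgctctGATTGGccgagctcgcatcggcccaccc
Cyp51, chr5:4104699-4104748 (minus strand): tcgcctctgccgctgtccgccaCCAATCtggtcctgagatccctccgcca
Msmo1, chr8:64733647-64733696 (minus strand): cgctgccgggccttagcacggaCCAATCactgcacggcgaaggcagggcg
The first base of the match lies 137 bases before the start in Hmgcs1, 27 in Mvd, 63 in Lss, 29 in Cyp51 and 96 in Msmo1. Of the other motifs searched, CTTTGAT (TCF and LEF), AATNCACA (FOXH1), TGACTCA (AP-1), CAGACA (SMAD) and CACGTG (Myc and USF) were in 3.82%, 3.63%, 5.54%, 21.0% and 9.19% of measured genes. Their shares were 4.47%, 4.07%, 4.07%, 16.7% and 10.6% in the risen genes, and 2.51%, 2.76%, 6.28%, 20.6% and 11.3% in the fallen genes. All 8 motifs were searched on both strands, none contains another, and matches of different motifs may share bases.

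Stress genes were lower in rsEpiSC in part. Of 20 p53 targets 5 fell and 0 rose, with a median of -0.72. With the 4 arrays left out in the order used above, 1, 4, 3 and 3 of these and 0, 3, 0 and 4 integrated stress response genes fell. Fas, a death receptor, measured 3.58 and 3.17 in rsEpiSC E5.75, against 6.13 and 5.26 in EpiSC (log2 difference -2.31 ± 0.31 SE, adjusted p = 0.00124). Mdm2, the ligase that degrades p53, measured 7.30 and 7.47 in rsEpiSC E5.75, against 9.27 and 9.18 in EpiSC (log2 difference -1.84 ± 0.31 SE, adjusted p = 0.0054). Mdm2 stayed well above the median of all values in both groups. Plk2, Phlda3 and Perp fell by 2.47, 1.49 and 2.80, and Perp is also a desmosome gene. Cdkn1a, the p21 inhibitor, measured 9.48 and 9.79 in rsEpiSC E5.75, against 11.05 and 10.86 in EpiSC and did not pass (adjusted p = 0.189). Of 19 targets of the integrated stress response 4 fell and 0 rose. Trib3, a pseudokinase, measured 4.46 and 4.93 in rsEpiSC E5.75, against 7.69 and 6.58 in EpiSC (log2 difference -2.44 ± 0.45 SE, adjusted p = 0.0089). Ddit3, the factor CHOP, measured 6.19 and 7.01 in rsEpiSC E5.75, against 10.03 and 7.79 in EpiSC (log2 difference -2.32 ± 0.58 SE, adjusted p = 0.0471). EpiSC replicate 1 was above replicate 2 by 2.24 for Ddit3. Cth, of cysteine synthesis, and Cebpb fell by 3.04 and 1.79. None of 13 tRNA synthetases passed. Of 23 amino acid transporters Slc7a7, Slc6a15 and Slc1a3 fell by 2.77, 2.14 and 1.73. Among 19 glycolysis genes Aldoc rose by 1.58 and Ldhb fell by 2.06, and 0 of 29 subunits of oxidative phosphorylation passed. Of 16 DNA replication genes Mcm6 and Mcm3 rose by 1.23 and 0.94, all 16 differences were above 0, and their mean was 8.72 and 8.68 on the rsEpiSC E5.75 arrays, against 7.59 and 8.34 on EpiSC replicates 1 and 2. None of 12 mitosis genes passed. Cdk6, a kinase of G1, was the 1 of 14 G1 genes that passed and measured 6.14 and 6.08 in rsEpiSC E5.75, against 8.62 and 8.54 in EpiSC (log2 difference -2.47 ± 0.27 SE, adjusted p = 0.000404). None of 11 genes of MHC class I antigen presentation passed. Fas, Slc7a7 and Cdk6 kept their calls when any 1 of the 4 arrays was left out, and the other passing genes given here did not in at least 1 of those fits. Phlda3 and Perp passed in none of them.

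Of 9 genes of DNA methylation Dnmt1 and Uhrf1, which maintain methylation at replication, rose by 0.88 and 1.22. Of 11 primordial germ cell genes the receptor Kit rose by 2.02 and the membrane protein Ifitm3 fell by 2.46. Of 14 germline genes known to be silenced by methylation Tdrkh rose, with 7.19 and 7.11 in rsEpiSC E5.75, against 5.13 and 5.37 in EpiSC (log2 difference 1.90 ± 0.38 SE, adjusted p = 0.014). Of 31 imprinted genes 2 rose and 1 fell, against 1.56% and 2.31% of all genes. Both risen genes are maternally expressed noncoding RNAs of the Dlk1-Dio3 region. Rian measured 8.19 and 8.49 in rsEpiSC E5.75, against 5.16 and 3.81 in EpiSC (log2 difference 3.85 ± 0.38 SE, adjusted p = 0.000217), and Meg3 measured 6.65 and 7.18 in rsEpiSC E5.75, against 5.56 and 5.30 in EpiSC (log2 difference 1.49 ± 0.36 SE, adjusted p = 0.0391). Rian had 8.58 and 8.51 in ESC, so EpiSC was the low group among the cultured cells. Phlda2, of the placenta, fell by 2.07. Rian still passed without any 1 of the 4 arrays, and the other passing genes given here did not in at least 1 of those fits. Kit, Ifitm3, Tdrkh, Meg3 and Phlda2 passed in none of them.

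Several probe sets carry the names of miRNA genes. They were named after their values were seen, and the signal may come from the long primary transcript, since the labelling starts from amplified long RNA. Mir17, Mir18, Mir19a and Mir20a are neighbours on chromosome 14, and Mir20b belongs to a related cluster on chromosome X. The mature sequences from RefSeq (build GRCm38.p6) are shown to compare their seeds, bases 2 to 8, which are in capitals.
mmu-miR-17-5p: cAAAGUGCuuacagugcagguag
mmu-miR-20a-5p: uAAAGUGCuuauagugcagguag
mmu-miR-20b-5p: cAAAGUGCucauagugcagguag
mmu-miR-18a-5p: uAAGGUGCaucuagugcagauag
mmu-miR-19a-3p: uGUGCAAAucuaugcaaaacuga
The first 3 share the seed AAAGUGC, miR-18a-5p has AAGGUGC and miR-19a-3p has GUGCAAA. Mir17 had log2 signals of 6.16 and 6.37 in rsEpiSC E5.75, against 3.84 and 4.01 in EpiSC (log2 difference 2.34 ± 0.25 SE, adjusted p = 0.000336). Mir18 measured 6.25 and 5.75 in rsEpiSC E5.75, against 3.96 and 4.19 in EpiSC (log2 difference 1.93 ± 0.44 SE, adjusted p = 0.0287). Mir19a measured 4.48 and 3.34 in rsEpiSC E5.75, against 1.16 and 1.62 in EpiSC (log2 difference 2.52 ± 0.37 SE, adjusted p = 0.00236). These 3 probe sets of the cluster were above EpiSC on both rsEpiSC arrays. Such a lack of overlap held for every passing gene, and 24.7% of all genes were higher without overlap. Mir20b measured 4.70 and 5.28 in rsEpiSC E5.75, against 2.98 and 2.43 in EpiSC (log2 difference 2.29 ± 0.56 SE, adjusted p = 0.0413). Mir20a overlapped and did not pass, with 5.71 and 4.68 in rsEpiSC E5.75, against 4.71 and 1.73 in EpiSC (adjusted p = 0.186). Mir17 and Mir19a kept their calls when any 1 of the 4 arrays was left out, and Mir18 and Mir20b lost theirs each time. On the rsEpiSC E6.5 arrays Mir17 measured 6.94 and 6.83 and Mir20b 4.73 and 4.72.

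Fallen genes were unevenly spread over chromosomes. On chromosome 12, 49 of 748 genes fell (6.55%), against 1.11% to 2.95% on each other chromosome and 464 of 21213 genes outside it. The share that rose there was 2.27%. To see where these genes lie, protein-coding genes with a mean log2 signal over 5.5 were taken in gene order, in 308 windows of 20 to 25 genes. The pattern begins near Sos2, a boundary chosen after the values were seen. From Sos2 to the end of the chromosome, 139 of 168 genes were below 0, 32 fell and 0 rose, with a median of -0.50. Before Sos2, 64 of 117 genes were below 0, 2 fell and 4 rose, with a median of -0.02. The lowest window of all, from Timm9 to Mpp5, had a median of -1.08 with 24 of 25 genes below 0 and 11 fallen. Each rsEpiSC array set against the EpiSC mean gave -1.17 and -0.98 there, and rsEpiSC E6.5 minus EpiSC gave -1.08. The window was picked by its value in rsEpiSC E5.75 minus EpiSC. All differences given for it here and below reuse arrays of that comparison, so none is a separate test of it. The 297 windows outside chromosome 12 had medians between -0.36 and 0.81. Tmem30b, a subunit of lipid flippases, measured 4.10 and 3.97 in rsEpiSC E5.75, against 8.04 and 7.67 in EpiSC (log2 difference -3.82 ± 0.36 SE, adjusted p = 0.000152). Dhrs7, a dehydrogenase, measured 5.69 and 5.80 in rsEpiSC E5.75, against 9.17 and 8.62 in EpiSC (log2 difference -3.15 ± 0.42 SE, adjusted p = 0.00117). Mthfd1, of one-carbon metabolism, measured 7.82 and 7.40 in rsEpiSC E5.75, against 9.52 and 9.82 in EpiSC (log2 difference -2.06 ± 0.24 SE, adjusted p = 0.000606). In the same stretch Hif1a, the hypoxia factor, and the phosphatase Ppm1a fell by 1.30 and 1.78. These 5 genes and Sos2 itself (-1.5) were named after their values were seen, and Hif1a and Sos2 lost their calls without some of the 4 arrays. Each group was also set against ESC: in the Timm9 to Mpp5 window the median was -0.10 in rsEpiSC E5.75 minus ESC and 1.11 in EpiSC minus ESC (1.08 and 1.18 on the 2 EpiSC arrays). The 297 windows outside chromosome 12 ran from -0.38 to 0.58 in rsEpiSC E5.75 minus ESC and from -0.61 to 0.51 in EpiSC minus ESC. From Sos2 on, the medians were 0.05 in rsEpiSC E5.75 and 0.61 in EpiSC, and before Sos2 they were 0.09 in rsEpiSC E5.75 and 0.27 in EpiSC. Set against epiblast tissue of E5.75 in the same window, rsEpiSC E5.75 gave 0.05 and EpiSC 0.95. The windows outside chromosome 12 reached 1.21 in rsEpiSC E5.75 and 1.23 in EpiSC in that comparison, and 8 of 297 were at or above 0.95 in EpiSC, so a value of this size against the tissue is not particular to chromosome 12. The noncoding Rian and Meg3 lie in the same distal stretch and rose, so the direction did not hold for every gene there. Without the genes of chromosome 12, 779 genes passed, 324 of them risen. The genome was not measured, and its part in this pattern was not tested.

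**Figure D5:**
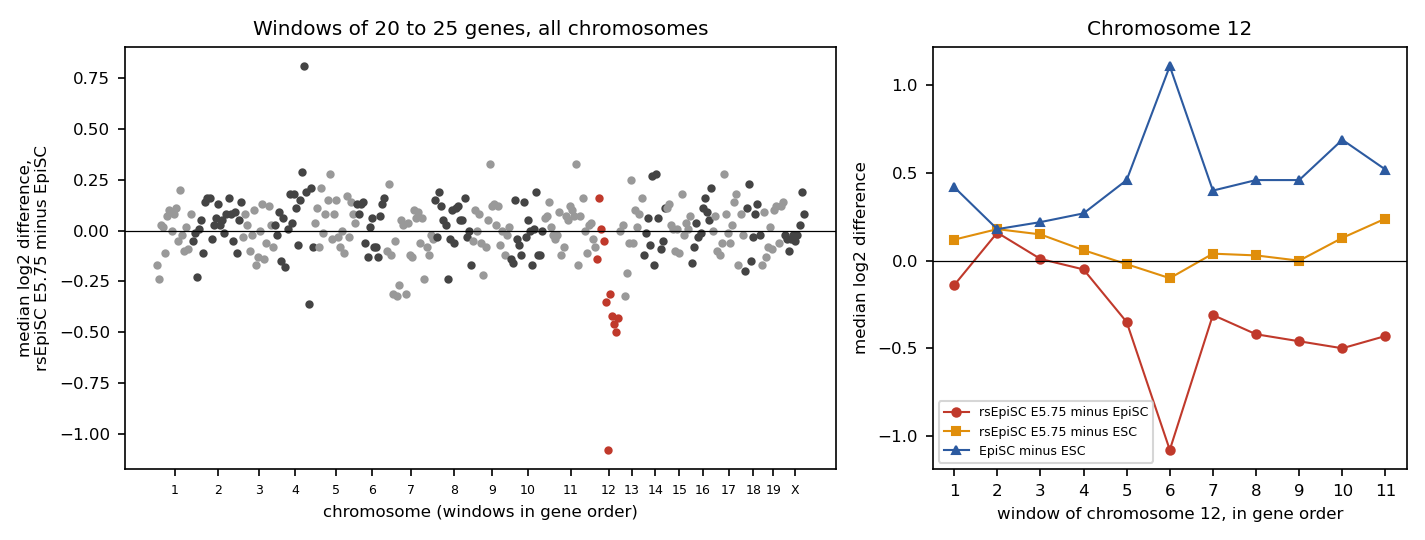
Left, the median log2 difference, rsEpiSC E5.75 minus EpiSC, of each window of 20 to 25 genes in gene order, by chromosome. Right, the 11 windows of chromosome 12, with rsEpiSC E5.75 minus EpiSC at -1.08 in window 6, rsEpiSC E5.75 minus ESC near 0 and EpiSC minus ESC at 1.11.

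Outside chromosome 12 the highest window median was on chromosome 4, from Stx12 to Pnrc2, at 0.81, with 4 genes risen and 2 of 25 below 0. There rsEpiSC E5.75 minus ESC was 0.16 and EpiSC minus ESC -0.61. This window too was picked by its value in rsEpiSC E5.75 minus EpiSC, and both differences reuse arrays of that comparison.

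The comparison of rsEpiSC of E6.5 with rsEpiSC of E5.75, in the same medium, sets lines of a later stage against those described above. Only 19 of 22180 genes (0.0857%) passed, and 9 of them are among the 858. Mid1 measured 6.60 and 7.02 in rsEpiSC E6.5, against 10.57 and 10.68 in rsEpiSC E5.75 (log2 difference -3.81, adjusted p = 0.000114). Its high level was thus seen on the rsEpiSC E5.75 arrays and not on those of E6.5. Utf1 measured 9.62 and 8.76 in rsEpiSC E6.5, against 5.36 and 6.37 in rsEpiSC E5.75 (3.32, adjusted p = 0.00587). A further 3 genes, named after their values were seen, did likewise. Tubb2a, a beta tubulin, measured 5.89 and 6.29 in rsEpiSC E6.5, against 3.07 and 3.24 in rsEpiSC E5.75 and 6.32 and 6.96 in EpiSC. Dmrt3, a factor of forebrain and spinal cord, measured 5.26 and 5.66 in rsEpiSC E6.5, against 8.42 and 7.41 in rsEpiSC E5.75 and 4.63 and 4.84 in EpiSC. Pmel, a melanosome protein, measured 4.98 and 5.12 in rsEpiSC E6.5, against 7.35 and 7.74 in rsEpiSC E5.75 and 5.18 and 4.30 in EpiSC. For these 5 genes the rsEpiSC E6.5 arrays were nearer to EpiSC than to rsEpiSC E5.75. Both comparisons share the rsEpiSC E5.75 arrays.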

How the data were processed

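Total RNA was amplified with an oligo-dT based kit and hybridised to 12 arrays, per the labels' protocols. The protocol text names a human array, but the identifiers in the table are those of a mouse array, whose supplied annotation named the genes here. The deposited values are log2 signals of 41345 probe sets, which the authors made, per the submitters' processing notes, by RMA in oligo (versions not given there), and were taken as deposited. Probe detection is unknown here.

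Of the probe sets, 23521 carried 1 symbol, 1814 several and 16010 none. Identifiers were checked against RefSeq (GRCm38.p6), which held 99.18% and changed 0 symbols. For 1082 genes with several probe sets the one with the highest mean was kept. Groups were compared in R 4.3.3 with limma 3.58.1 (lmFit on 6 group means, eBayes with trend, residual df 6, prior df 5.99), with Benjamini-Hochberg adjustment over all 22180 genes and a threshold of 0.05. The smallest exact permutation p for 2 against 2 arrays is 0.333, so no gene could pass such a test. The script was tested on simulated data. Differences are on the log2 scale, with the SE of the fit.

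Named genes are the 12 highest and 12 lowest passing genes whose groups do not overlap (predicted genes, clones and small RNAs left out), passing members of 38 gene lists written from general knowledge, up to 3 members of a list that did not pass and 13 fixed genes. The comparison, the lists and the motifs were chosen with earlier results of these data known. Some genes are in several lists, which were counted and not tested. RefSeq gave gene names, chromosomes, gene order, promoters and mature miRNAs; 16990 measured genes had a promoter. A further item is not reported here.

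Replicate numbers carry no stated pairing, and the deviations of same-numbered arrays from their group means correlated at -0.041 over genes.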

Additional observations from a re-analysis of the deposited data

How the results depend on the processing

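The count of 858 passing genes became 779 (310 risen, 469 fallen) with the replicate number as a block, which the labels do not state to be a pairing, 701 after quantile normalization, 849 with arrays centred on their medians, 864 among genes above the median signal, 876 with all probe sets of a gene averaged, 874 without the variance trend, 1013 with the 4 arrays alone, 958 with the 8 cultured arrays and 779 without chromosome 12, an alternative chosen after seeing the data. It moved further with array weights, to 1567 (680 risen, 887 fallen), and over all 41345 probe sets, to 577 (225 and 352), where more features share the adjustment. Leaving out 1 array gave 318 to 626 passing genes, the lone array of that group taking its spread from the remaining ones. Of the 164 named passing genes, 149 still passed with the replicate block, 144 after quantile normalization and 96 over every probe set, and 62 in every alternative in which they were tested.

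Changes of sign occurred for 6 named genes that did not pass, in fits with 1 array left out. Over those 4 fits the difference ran from -0.15 (without EpiSC replicate 1; -0.02 without rsEpiSC replicate 2) to 0.47 for Esrrb, from -0.61 to 0.06 (without rsEpiSC replicate 2) for Gata4, and from -0.55 to 0.18 (without EpiSC replicate 1) for Hhex. It ran from -1.08 to 0.65 for Dnmt3b, from -2.64 to 0.03 for Fgf5 and from -1.58 to 0.16 for Pim2, each with the positive value without EpiSC replicate 2. With 2 arrays a group and no detection calls, differences of genes at low signal are the least certain, and a gene that did not pass is not shown to be equal.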

Other observations

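Some single values stood apart between replicate arrays, and these genes were named after their values were seen. Hexa, a lysosomal hexosaminidase subunit, measured 2.63 and 7.94 in rsEpiSC E5.75, against 10.43 and 9.80 in EpiSC, and did not pass (adjusted p = 0.0653). Txnip, a thioredoxin-binding protein, measured 10.93 and 10.15 in rsEpiSC E5.75, against 10.03 and 6.89 in EpiSC (adjusted p = 0.191). Lce1h measured 3.63 and 2.87 in rsEpiSC E5.75, against 3.79 and 7.77 in EpiSC. Dynap measured 3.08 and 2.62 in rsEpiSC E5.75, against 2.90 and 6.74 in EpiSC.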
